A study of Sus scrofa with 32 samples.

Results

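Liver of runt pig fetuses was compared with liver of control fetuses at gestational day 70, inside a study of pig (Sus scrofa) liver development in the normal and the growth-retarded fetus. The comparison takes the 4 arrays whose titles name a day 70 runt and the 4 whose titles name a day 70 control, 8 of the 32 arrays in all. The other 24 arrays hold 4 controls and 4 runts at each of gestational days 37, 50 and 110. All fetuses, controls included, came from inseminated gilts that had lost 1 uterine horn and ovary by surgery, so that the remaining horn was overcrowded and some fetuses were growth-retarded. Controls and runts are described as littermate pairs from different gilts, but the labels do not say which day 70 control shared a litter with which runt, and fetal sex and weight were not given. Each array held Cy3-labelled cRNA made from the total RNA of 1 liver.

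The fetal liver makes most plasma proteins of the fetus and, in mid gestation, is also a main site of blood cell formation, so that liver RNA at this stage is a mixture of hepatoblast, blood and stromal RNA. Runts are the small members of a litter, and fetal growth restriction is known to be associated with altered insulin-like growth factor signalling, thyroid and steroid hormone handling and nutrient use in the liver. Whole liver was measured, so fewer cells of a type and less RNA per cell cannot be told apart. Levels below are log2 signals set against the 75th percentile of their own array, and differences are runt minus control means of these levels. A negative level means only a signal under that percentile.

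The arrays of both groups covered overlapping ranges of signal. The 75th percentile of the signal was 277 to 350 intensity units on the runt arrays and 276 to 340 on the control arrays, and no spot was saturated. Between 59.4% and 62.8% of spots were well above background on runt arrays and between 51.3% and 66.8% on control arrays, with control 4 the lowest. Control 4 also had 234 spots flagged as outliers, against 2 to 18 on the other day 70 arrays. The 4 replicates of a group limit the precision of each value. The hepatocyte markers ALB, AFP and TTR were well above background on all 8 arrays while IGFBP1, HBB, PCK1, G6PC and CPS1 were not measured. Arrays of different groups resembled each other as much as arrays of 1 group did. Across features the correlation was 0.963 to 0.977 between controls, 0.972 to 0.983 between runts and 0.967 to 0.983 between a control and a runt. Controls varied more than runts, with a median SD over features of 0.31 against 0.26, and the control SD was the larger in 63.1% of features. The first principal component of the 8 arrays carried 31.9% of the variance and set controls 3 and 4 and runt 4, on slides 1 to 3, apart from controls 1 and 2 and runts 1, 2 and 3, on slides 4 to 8. These are 2 sets of slides by the barcode series in the file headers, so values within each set are given beside the results they alter. Controls were divided more evenly over these sets than runts, so the larger control SD cannot be told apart from slide set. What control 4 adds to that SD was not tested.

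No feature passed the test between runt and control liver at day 70. Of 28673 features, 0 had a limma adjusted p under 0.05 (0%), and of the 1596 features with a gene symbol 0 did (0%). The smallest adjusted p was 1.00, which therefore holds for every gene named here at day 70, and the p-values printed with single genes are unadjusted. At an unadjusted p under 0.05 there were 521 features (1.82%), of which 232 were higher in runts (0.809%) and 289 lower (1.01%). With a symbol there were 26 (1.63%), 17 higher (1.07%) and 9 lower (0.564%). Both totals are smaller shares than the threshold of 0.05, so neither is an excess over what no difference would give. The share of the 521 that was higher in runts, 44.5%, depended on the scaling. It was 58.2% of such features in the authors' deposited value table, 59.8% after quantile normalization, 90% after normexp background correction and 23.5% without a filter on dim probes. Normexp also moved the median difference of all features from 0.02 to 0.20, and its values are to be read against that shift.

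The groups were separated, with all 4 runts on one side of all 4 controls, in 320 features (1.12%), 162 with runts higher (0.565%) and 158 with runts lower (0.551%). Among features with a symbol 19 were separated (1.19%). Some features separate by chance with 4 arrays against 4, and that rate was not computed here, so separation alone is no sign of a runt effect. A mean difference of at least 2-fold in either direction was seen in 360 features (1.26%), 203 lower and 157 higher in runts. The mean was above 0 in 15783 features (55%) and in 923 of those with a symbol (57.8%), and these shares are the background for the counts of list members below. The size of the differences was limited as well as their certainty. The median absolute difference was 0.13, against 0.13 at day 37, 0.18 at day 50 and 0.15 at day 110. The median SE was 0.24, and the 95% interval of the difference lay within 2-fold in both directions for 21770 features (75.9%) and for 1218 of those with a symbol (76.3%). For the other features the interval reached beyond a 2-fold change, so a difference of that size was not excluded with 4 arrays against 4.

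The smallest p of any gene with a symbol was that of an enzyme of amino acid breakdown. TDH, the mitochondrial threonine dehydrogenase that breaks threonine down, had levels of 1.51, 2.71, 1.75 and 1.57 in controls 1 to 4 and 0.83, 1.11, 0.00 and 1.48 in runts 1 to 4. All runts lay below all controls, with runt 3 the lowest and runt 4 next to the controls. The mean difference was -1.03 (SE 0.28, 95% interval -1.60 to -0.47, unadjusted p = 0.000869), and a further TDH probe gave -0.95. ACAA2, a thiolase of mitochondrial fatty acid oxidation, went the other way, at 2.92, 3.44, 3.90 and 3.18 in controls and 4.36, 3.63, 4.62 and 3.53 in runts. Runts 1 and 3 lay above all controls and runts 2 and 4 among them. The difference was 0.67 (SE 0.28, 95% interval 0.11 to 1.24, unadjusted p = 0.0218), and within slides 1 to 3 it was below 0. Of the 20 measured genes of fatty acid oxidation and ketogenesis, 0 passed, 15 were above 0 and 5 below, and the median was 0.05, beside 0.03 for all features with a symbol. ANGPTL4, a secreted inhibitor of lipoprotein lipase, stood at 0.62 (SE 0.36) and CRAT, carnitine acetyltransferase, at 0.22 (SE 0.14), with -0.10, 0.21 and 0.04 at its other probes.

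**Figure D1:**
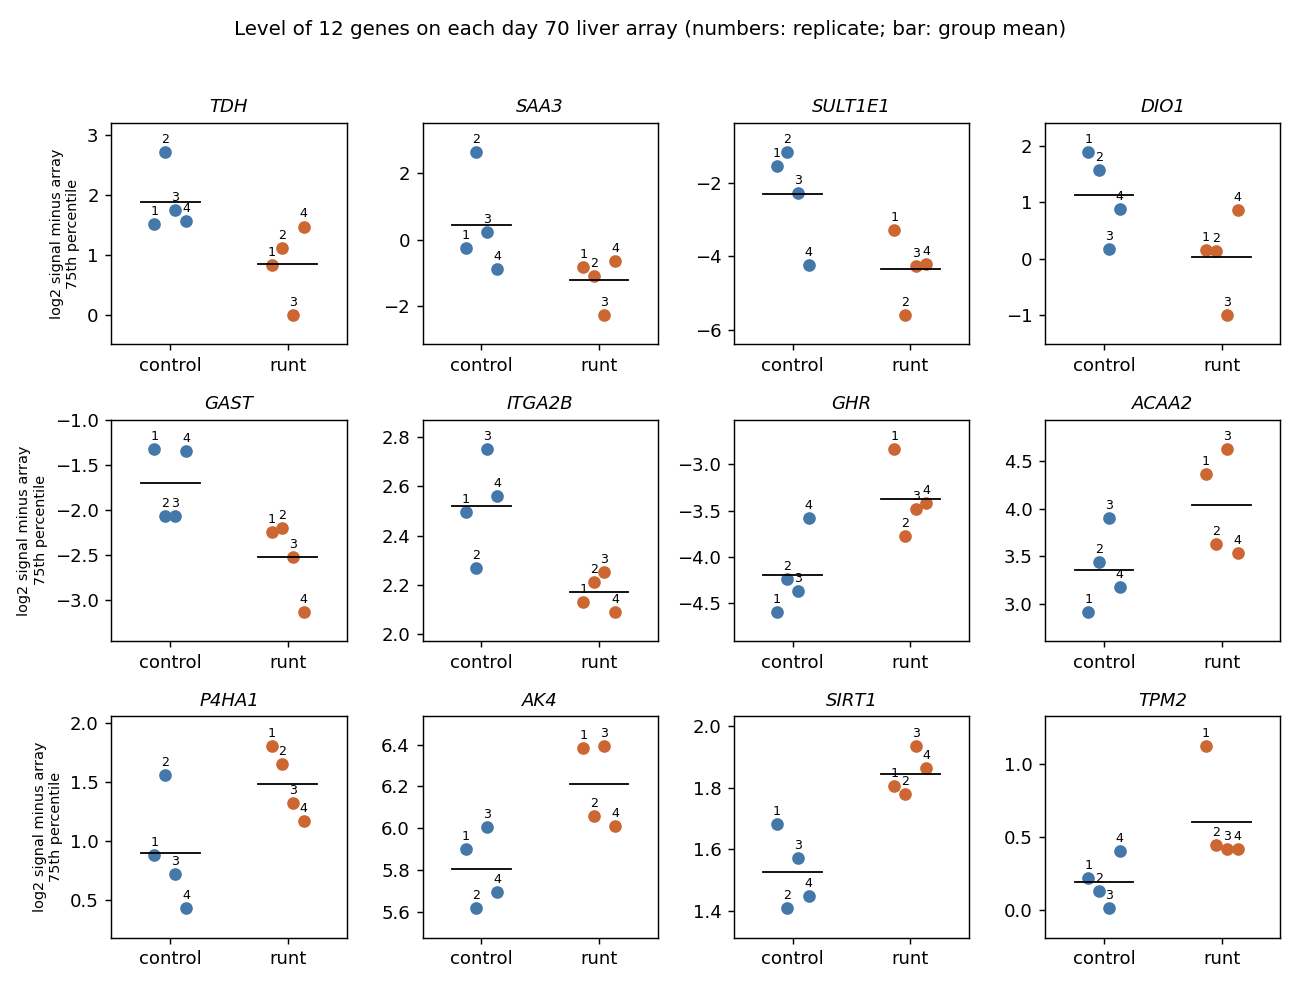
Level of 12 genes on each of the 8 day 70 arrays, as log2 signal minus the array's 75th percentile, with controls in blue, runts in orange, replicate numbers beside the points and a bar at each group mean. The groups are separated for TDH, GAST, ITGA2B, AK4, SIRT1 and TPM2 and overlap for SAA3, SULT1E1, DIO1, GHR, ACAA2 and P4HA1, and 0 of the 12 passed the adjusted test.

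Hypoxia genes had no common direction. Of the 14 measured members 6 were above 0 and 8 below, beside 57.8% above 0 among all features with a symbol, the median was -0.02, and 0 passed. VEGFA, the vascular endothelial growth factor, stood at 0.31 (SE 0.28), with -0.06 at its other probe, and ADM, the vasodilator peptide adrenomedullin, at 0.27 (SE 0.26). AK4 and SIRT1 are on none of the lists and are given because their groups were separated. AK4, a mitochondrial adenylate kinase, was at 5.90, 5.62, 6.01 and 5.70 in controls and 6.39, 6.06, 6.39 and 6.01 in runts, with every runt above every control by a narrow margin. Its difference was 0.41 (SE 0.17, 95% interval 0.06 to 0.76, unadjusted p = 0.0247), and its other probe gave 0.43. SIRT1, a deacetylase that depends on NAD, was at 1.68, 1.41, 1.57 and 1.45 in controls and 1.81, 1.78, 1.94 and 1.86 in runts, again with the groups apart. Its difference was 0.32 (SE 0.13, 95% interval 0.04 to 0.59, unadjusted p = 0.0245). P4HA1, a subunit of the collagen prolyl hydroxylase, was at 0.89, 1.56, 0.72 and 0.43 in controls and 1.81, 1.65, 1.32 and 1.17 in runts, so that only control 2 reached into the runt range. Its difference was 0.59 (SE 0.25, 95% interval 0.06 to 1.11, unadjusted p = 0.0296), with 0.47, 0.28 and 0.20 at its other probes.

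Central carbon and nitrogen pathways lay near the background. Among 9 measured genes of gluconeogenesis and glycogen 7 were above 0 (median 0.06), among 9 of glycolysis 7 (median 0.08), among 8 of cholesterol synthesis 5 (median 0.06) and among 16 of fatty acid and triglyceride synthesis 7 (median -0.05). The list medians ranged no farther from 0 than the median absolute difference of all features. GLUL, glutamine synthetase, had the smallest p of the 5 measured genes of the urea cycle and ammonia list. It was at 0.10, 0.46, 1.43 and 0.73 in controls and 1.25, 1.67, 1.82 and 0.36 in runts. Runts 2 and 3 were the highest, control 3 lay above runt 1, and runt 4 lay among the other controls. The difference was 0.59 (SE 0.31, 95% interval -0.04 to 1.22, unadjusted p = 0.0653). OTC, the urea cycle enzyme ornithine transcarbamylase, stood at 0.23 (SE 0.24), and RHBG, an ammonia transporter, at -0.61 (SE 0.42). Of 21 genes of the respiratory chain and ATP synthase 15 were above 0 (median 0.04). NDUFB8, a complex I subunit, had separated groups at 0.21 (SE 0.13), although normexp turned its sign. IDH3A, a subunit of the citric acid cycle's isocitrate dehydrogenase, was separated in the other direction at -0.13 (SE 0.18).

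**Figure D2:**
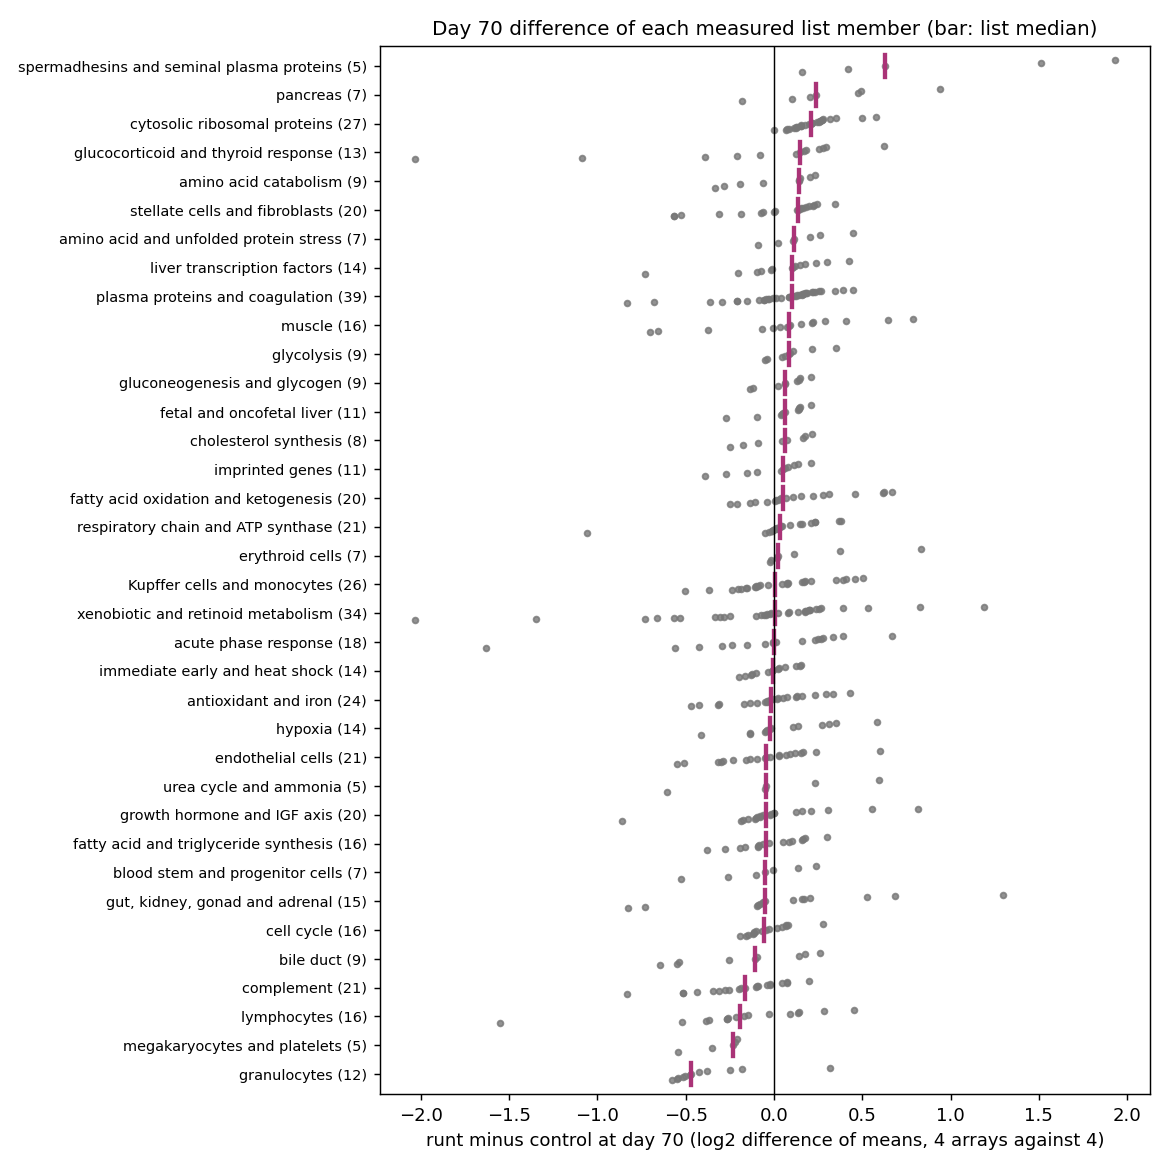
Day 70 difference (runt minus control, log2) of each measured member of the gene lists with 5 or more measured members, 1 row per list ordered by list median, with each gene as a point and the median as a bar. Medians run from -0.47 for granulocytes to 0.63 for spermadhesins, most lists straddle 0, and 0 members passed the test.

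Plasma proteins and the acute phase response did not move as a block. Of 39 measured plasma protein and coagulation genes 25 were above 0 and 14 below (median 0.10). ALB, albumin, was at 8.71, 7.82, 7.18 and 6.88 in controls and 8.03, 7.44, 6.12 and 7.54 in runts. The groups overlapped, with runt 3 the lowest and control 1 the highest, and the difference was -0.36 (SE 0.59, 95% interval -1.57 to 0.84, unadjusted p = 0.542). AFP, the fetal counterpart of albumin, stood at 0.14 (SE 0.30), and TTR, the thyroid hormone carrier transthyretin, at 0.39 (SE 0.49). F9, coagulation factor IX, stood at 0.22 (SE 0.16) and SERPINF1, a secreted serpin, at 0.25 (SE 0.17). APOA4, an apolipoprotein, had a wide spread, at 0.50, 0.20, 0.74 and -0.14 in controls and 0.83, 1.26, -0.19 and 1.18 in runts, and a difference of 0.45 (SE 0.76). Of these 6 genes, all were well above background on the 8 arrays, and AFP, F9 and SERPINF1 took the other sign after normexp.

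SAA3, a serum amyloid A of the acute phase, had the smallest p among the members of the gene lists. Its levels were -0.24, 2.63, 0.23 and -0.87 in controls and -0.80, -1.08, -2.26 and -0.64 in runts. Control 2 was the highest by far, runt 3 the lowest, and control 4 lay inside the runt range. The difference was -1.63 (SE 0.51, 95% interval -2.68 to -0.58, unadjusted p = 0.00369), and a further probe gave -1.66. Over the 18 measured acute phase genes 9 were above 0 and 9 below, with a median of 0.00. HP, haptoglobin, was at 7.31, 7.66, 7.17 and 7.65 in controls and 6.65, 7.58, 6.49 and 7.39 in runts, with runts 1 and 3 below all controls and runts 2 and 4 among them, and stood at -0.42 (SE 0.32). LBP, the lipopolysaccharide binding protein, was at 0.88, 1.57, 0.96 and 0.64 in controls and -0.01, 0.91, -0.31 and 1.20 in runts, with the same runts 1 and 3 lowest. Its difference was -0.56 (SE 0.38). SERPINA3-2, an acute phase serpin, stood at -0.29 (SE 0.22), with 0.26 at its other probe.

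Complement genes were mostly lower in the mean. Of 21 measured members 17 were below 0 and 4 above, the median was -0.16, and 0 passed. C3, the central component, was at 6.27, 7.01, 6.37 and 6.56 in controls and 5.93, 6.23, 5.64 and 6.35 in runts. Runts 1, 2 and 3 lay below all controls and runt 4 among them, and the difference was -0.52 (SE 0.44, 95% interval -1.41 to 0.38, unadjusted p = 0.246). C9, of the membrane attack complex, stood at -0.35 (SE 0.24), with -0.07 and 0.07 at its other probes, and FCN1, a ficolin of myeloid cells, at -0.52 (SE 0.41). The median was 0.05 within slides 1 to 3, where 2 controls meet 1 runt, and -0.26 within slides 4 to 8. With 1 array left out it ran from -0.30 without control 3 to -0.07 without runt 3, and with slide as a fixed block 13 of 21 were below 0.

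Genes of the growth hormone and IGF axis overlapped between the groups. GHR, the growth hormone receptor, was at -4.59, -4.24, -4.37 and -3.58 in controls and -2.84, -3.77, -3.49 and -3.42 in runts, and was well above background on 2 control arrays and on 4 runt arrays. Runt 1 was the highest and runts 3 and 4 lay above all controls, while runt 2 lay below control 4. The difference was 0.81 (SE 0.29, 95% interval 0.22 to 1.41, unadjusted p = 0.00962). IGF1, a growth factor that growth hormone induces after birth, was at -2.70, -3.24, -3.47 and -2.81 in controls and -2.75, -2.72, -3.18 and -2.94 in runts, with the groups intermixed and a difference of 0.16 (SE 0.24). IGF2, the main fetal growth factor of the family, stood at 0.21 (SE 0.20), with 0.02, 0.01, 0.08 and 0.01 at its other probes. The binding protein IGFBP2 was at 6.41, 6.94, 7.34 and 6.63 in controls and 7.66, 7.09, 7.71 and 7.09 in runts, a difference of 0.56 (SE 0.46) in which control 3 lay among the runts. IGFBP3, the main carrier of circulating IGF after birth, stood at -0.19 (SE 0.22). Of 20 measured genes of the axis 6 were above 0 and 14 below (median -0.04), and 0 passed. STC1, the hormone stanniocalcin, was not well above background on any of the 8 arrays and gives no fold. The imprinted and fetal gene DLK1 stood at 0.14 (SE 0.32), with -0.21 at its other probe, and control 1 was its highest array.

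Steroid and thyroid handling held the gene with the largest difference among those with an unadjusted p under 0.05 in these lists. SULT1E1, the sulfotransferase that inactivates oestrogens, was at -1.53, -1.17, -2.28 and -4.23 in controls and -3.28, -5.60, -4.26 and -4.21 in runts. Controls 1 to 3 lay above all runts and control 4 among them. SULT1E1 was well above background on 3 control and 3 runt arrays only, so its difference rests partly on values near background. The difference was -2.03 (SE 0.71, 95% interval -3.50 to -0.57, unadjusted p = 0.00842), and on the other days it was -1.63, -2.53 and -2.11 at days 37, 50 and 110, in the same direction each time. DIO1, the deiodinase that activates thyroxine, was at 1.88, 1.57, 0.17 and 0.88 in controls and 0.15, 0.13, -0.99 and 0.87 in runts. Runt 4 was level with control 4, runts 1 and 2 lay just below the lowest control and runt 3 far below it, and the difference was -1.09 (SE 0.54, 95% interval -2.20 to 0.03, unadjusted p = 0.0554). HSD17B2, which oxidises oestradiol to oestrone, stood at 0.27 (SE 0.16). The nuclear receptor NR1I2, which senses xenobiotics, was at 0.95, 0.08, 0.57 and -1.35 in controls and -0.55, -0.89, -1.74 and 0.49 in runts, a difference of -0.73 (SE 0.42) with control 4 among the lowest and runt 4 among the highest. Over 34 measured genes of xenobiotic and retinoid metabolism 17 were above 0 and 17 below, with a median of 0.00. CYP7A1, which starts bile acid synthesis from cholesterol, was not well above background on any of the 8 arrays.

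In some genes runts 1 and 3 lay apart from runt 4. SLC15A1, a peptide transporter of gut and kidney epithelium, was at -2.08, -1.73, 0.16 and -1.11 in controls and 0.94, -0.86, 1.74 and -1.39 in runts, with runts 1 and 3 the highest of all and runt 4 inside the control range. The difference was 1.30 (SE 0.58, 95% interval 0.11 to 2.49, unadjusted p = 0.0335). ENPEP, an aminopeptidase of the same epithelia, was at -0.11, 0.23, -0.73 and -0.24 in controls and -1.63, -0.40, -2.27 and 0.54 in runts, with runts 1 and 3 the lowest and runt 4 the highest. The difference was -0.73 (SE 0.40). Runt 4 is also the only runt on slides 1 to 3. For ACAA2, GLUL, ALB, LBP, DIO1, NR1I2, SLC15A1 and ENPEP the difference had the other sign within those slides, so the place of runt 4 and its slide set cannot be told apart there.

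Platelet genes were lower in the mean in runts. All 5 measured megakaryocyte and platelet genes were below 0, with a median of -0.23, beside 45.0% of all features. ITGA2B, the platelet integrin chain, was at 2.50, 2.27, 2.75 and 2.56 in controls and 2.13, 2.21, 2.25 and 2.09 in runts, and the groups were separated. The difference was -0.35 (SE 0.15, 95% interval -0.66 to -0.03, unadjusted p = 0.0314). ITGB3, its partner chain, was at 2.84, 3.14, 3.99 and 3.63 in controls and 2.47, 2.74, 3.12 and 3.12 in runts, with controls 3 and 4 clearly and control 2 narrowly above all runts, and stood at -0.54 (SE 0.26, 95% interval -1.08 to -0.01, unadjusted p = 0.047). SELP, P-selectin, stood at -0.23 (SE 0.26). The mean deviation of the 5 genes from their day 70 mean was 0.13, -0.13, 0.48 and 0.14 in controls 1 to 4 and -0.14, -0.18, -0.13 and -0.18 in runts 1 to 4. Runts lay close together and control 2 was level with them. The median was -0.56 within slides 1 to 3, -0.19 within slides 4 to 8 and -0.49 after normexp, and ran from -0.40 without control 2 to -0.17 without control 3 with 1 array left out.

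Granulocyte genes were lowest in 2 of the runts. Of 12 measured members 11 were below 0, the median was -0.47, and 0 passed. ANXA1, annexin A1 of myeloid cells, was at 3.16, 2.66, 3.14 and 3.59 in controls and 2.24, 2.61, 2.39 and 3.11 in runts, a difference of -0.55 (SE 0.31). NCF1, a subunit of the phagocyte oxidase, was at -1.12, -1.30, -1.65 and -0.85 in controls and -1.89, -1.72, -1.67 and -1.81 in runts, with the groups separated by a narrow margin at control 3 and a difference of -0.54 (SE 0.38). CYBA, another subunit, stood at -0.25 (SE 0.19). The mean deviation of the 12 genes was 0.75, 0.43, -0.56 and 0.14 in controls and -0.79, 0.35, -0.72 and 0.40 in runts. Runts 1 and 3 were the lowest arrays, runts 2 and 4 lay within the control range, and control 3 was the next lowest. PMAP-36, the 1 member above 0, weighs heavily on these means. It was at 5.60, 4.94, -6.22 and -3.76 in controls and -4.35, 4.93, -3.75 and 4.99 in runts, lowest in control 3. The probe was bright on controls 1 and 2 and runts 2 and 4 and dim on the other arrays, with a gap of 8.68 between them. Means without PMAP-36 were not computed. The places of controls 2 and 3 and of runts 2 and 4 may therefore rest largely on that probe. On slides 1 to 3 alone the median was -0.15, on slides 4 to 8 alone -0.51 and with slide as a fixed block -0.84, and it ran from -0.55 to -0.33 with 1 array left out.

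**Figure D3:**
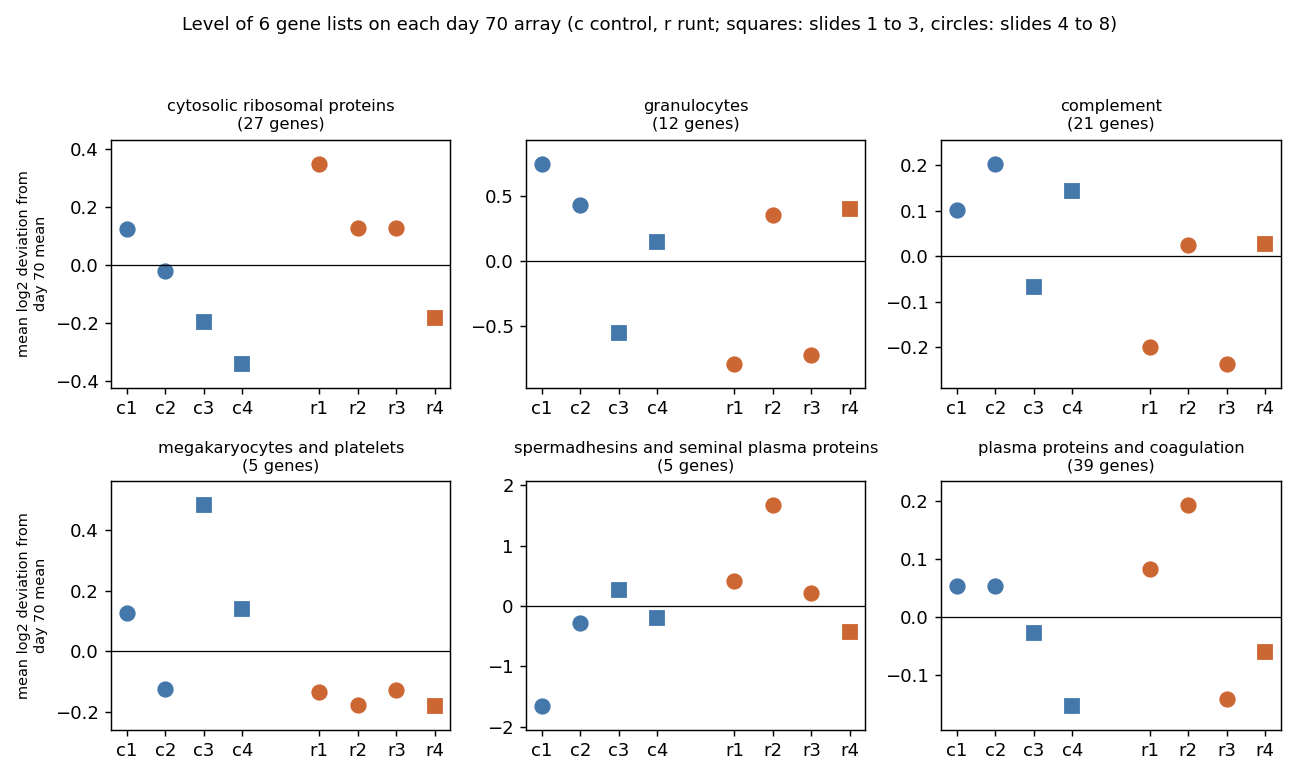
Mean deviation of the members of 6 gene lists from their own day 70 mean on each of the 8 arrays (log2), with controls c1 to c4 in blue, runts r1 to r4 in orange, squares for slides 1 to 3 and circles for slides 4 to 8. The megakaryocyte list has its runts between -0.18 and -0.13, the granulocyte list has runts 1 and 3 lowest, and the ribosomal list is lower on all squares than on any circle.

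The lists of other cell types leaned in different directions. Of 7 measured erythroid genes 5 were above 0 (median 0.02). HBE1, embryonic epsilon globin, was at 3.14, 2.79, 3.06 and 2.61 in controls and 2.50, 4.19, 3.87 and 2.54 in runts, with runts 2 and 3 the highest and runts 1 and 4 the lowest, and TFRC, the transferrin receptor, stood at -0.02 (SE 0.29). Of 26 measured genes of Kupffer cells and monocytes 13 were above 0 and 13 below (median 0.01), and the antigen presentation genes CD74, SLA-DRA and SLA-DQA1 stood at 0.39 (SE 0.24), 0.46 (SE 0.31) and 0.50 (SE 0.33). Of 16 lymphocyte genes 11 were below 0 (median -0.19). RAG2, the recombinase of developing lymphocytes, was at -1.60, -2.08, -3.22 and 4.62 in controls and -2.02, -1.62, -2.15 and -2.70 in runts, so that control 4 alone makes its difference of -1.55 (SE 0.91). Of 21 endothelial genes 12 were below 0 (median -0.04). NOS3, the endothelial nitric oxide synthase, stood at -0.30 (SE 0.16) and EDN1, endothelin, at 0.60 (SE 0.32). EDN1 was well above background on 1 control and 3 runt arrays only, so its difference rests partly on values near background. Of 20 stellate cell and fibroblast genes 12 were above 0 (median 0.13), of 9 bile duct genes 3 (median -0.11), of 7 pancreas genes 6 (median 0.24) and of 16 muscle genes 11 (median 0.09). TPM2, a tropomyosin of smooth and striated muscle, was at 0.22, 0.13, 0.01 and 0.40 in controls and 1.12, 0.45, 0.42 and 0.42 in runts. Its groups were narrowly separated, runt 1 stood far above the rest, and the difference was 0.41 (SE 0.16, 95% interval 0.08 to 0.74, unadjusted p = 0.0161).

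The differences of the other separated genes ran from -0.83 for GAST to 0.51 for MAP3K21. Runts were higher for R3HCC1L at 0.27 (SE 0.14), for the proteasome activator subunit PSME1 at 0.24 (SE 0.13), for the kinase MAP3K21 at 0.51 (SE 0.28) and for the interferon gamma receptor chain IFNGR1 at 0.29 (SE 0.18). They were higher as well for the cathepsin CTSV at 0.22 (SE 0.21). IFNGR1 gave -0.13 and 0.29 at its other probes. PSME1 and CTSV took the other sign after normexp. Runts were lower for GAST, the precursor of the hormone gastrin, which was at -1.32, -2.07, -2.07 and -1.34 in controls and -2.24, -2.20, -2.53 and -3.13 in runts. Control 2 and control 3 were next to the runts and runt 4 the lowest, and the difference was -0.83 (SE 0.36, 95% interval -1.56 to -0.09, unadjusted p = 0.0296). Runts were lower too for CMAH, which makes the sialic acid Neu5Gc, at -0.35 (SE 0.21) and for the heat shock protein HSPA6 at -0.13 (SE 0.17). HYAL1, a hyaluronidase, and ADAM10, a sheddase, stood at -0.56 (SE 0.35) and -0.25 (SE 0.17) and took the other sign after normexp.

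Further genes among the 26 with an unadjusted p under 0.05 are given because of that p, so they were chosen after their values were seen. Of those well above background on all 8 arrays, PRKAA1, a catalytic subunit of the energy sensor AMPK, was at -1.04, -1.11, -0.74 and -0.83 in controls and -0.50, -0.79, -0.55 and -0.66 in runts. Runts 1, 3 and 4 lay above all controls and runt 2 among them, and the difference was 0.31 (SE 0.15). STAT2, a transcription factor of interferon signalling, stood at 0.34 (SE 0.17), and the chemokine CCL20 at -0.998 (SE 0.43) with runt 1 inside the control range. NR4A3, an orphan nuclear receptor, was well above background on 0 control and 3 runt arrays, and runts were at least 1.94-fold higher. BLNK, CXCR6, GABBR1, CAPN3 and CHAT were not well above background on part of the arrays, and no difference is given for them. They were above it on 1, 1, 2, 3 and 1 control arrays and on 2, 3, 4, 3 and 1 runt arrays, in that order.

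Spermadhesins, small secreted proteins known from boar seminal plasma, were all above 0 in the mean. The 5 measured members had a median of 0.63, beside 2.39 at day 50 and 1.75 at day 110, and 0 passed at day 70. SPMI was at -6.64, -3.85, -1.72 and -3.38 in controls and -2.97, -0.62, -0.37 and -3.89 in runts. Runts 2 and 3 were the highest, control 1 the lowest and runt 4 among the controls, and the difference was 1.93 (SE 1.09, 95% interval -0.30 to 4.16, unadjusted p = 0.0864). AQN-1 was at -7.55, -3.98, -4.04 and -4.58 in controls and -3.46, -1.64, -4.37 and -4.62 in runts, well above background on 2 control and 4 runt arrays. Runt 2 was the highest and control 1 far below the rest, and the difference was 1.51 (SE 0.70, 95% interval 0.07 to 2.95, unadjusted p = 0.0402). PSP-I stood at 0.42 (SE 0.51). Without control 1 only 3 of the 5 were above 0, and the median was 0.68. With runt 2 left out 4 of the 5 were above 0 and the median was 0.28, and with 1 array left out it ran from 0.28 to 0.90. It took the value -0.31 within slides 1 to 3 and 1.23 on slides 4 to 8.

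Ribosomal protein genes were slightly higher in runts in the mean on the scale used, and this depended on the scaling. All 27 measured members were above 0, with a median of 0.21 and a range of 0.00 to 0.58. RPL29 stood at 0.26 (SE 0.14), RPL10 at 0.27 (SE 0.19) and RPS3 at 0.21 (SE 0.16). The median was 0.03 in the authors' deposited value table, with 15 of 27 above 0, and 0.03 after quantile normalization with 15. After normexp it was -0.08 with 4 of 27 above 0, against a median of 0.20 over all features. The mean deviation on the main scale was 0.12, -0.02, -0.19 and -0.34 in controls and 0.35, 0.13, 0.13 and -0.18 in runts. The lowest arrays, controls 3 and 4 and runt 4, are those of slides 1 to 3. The median was 0.15 with the slide set as a covariate, 0.10 within slides 1 to 3 with 23 of 27 above 0, and 0.13 within slides 4 to 8. It was 0.14 without control 4 and 0.14 without runt 1.

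The day 70 differences were then set beside those of the other days, which share no array with day 70. At day 50, 19 of 28673 features passed (0.0663%) and 2117 had an unadjusted p under 0.05 (7.38%). At day 110, 4 passed (0.014%) and 1261 had such a p (4.4%), and at day 37, 0 passed (0%) and 726 had one (2.53%). The 19 features called at day 50 had the same sign at day 70 in 19 of 19 cases, and the 4 called at day 110 in 3 of 4. The 9 that were higher in runts at day 50 had a median difference of 1.29 there and 0.31 at day 70, and the 10 that were lower had medians of -2.42 and -0.55. The 2 that were higher at day 110 were at 2.44 and 2.96 there and at 0.02 and -0.0012 at day 70, and the 2 that were lower were at -3.71 and -3.03 there and at -1.68 and -1.08 at day 70. Of all features 55.0% were above 0 and 45.0% below 0 at day 70. Among the 2117 features 1500 (70.9%) kept their day 50 sign, among the 1261 of day 110 863 (68.4%) did, and among the 726 of day 37 444 (61.2%) did. These counts describe features that vary together and are given with no test.

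**Figure D4:**
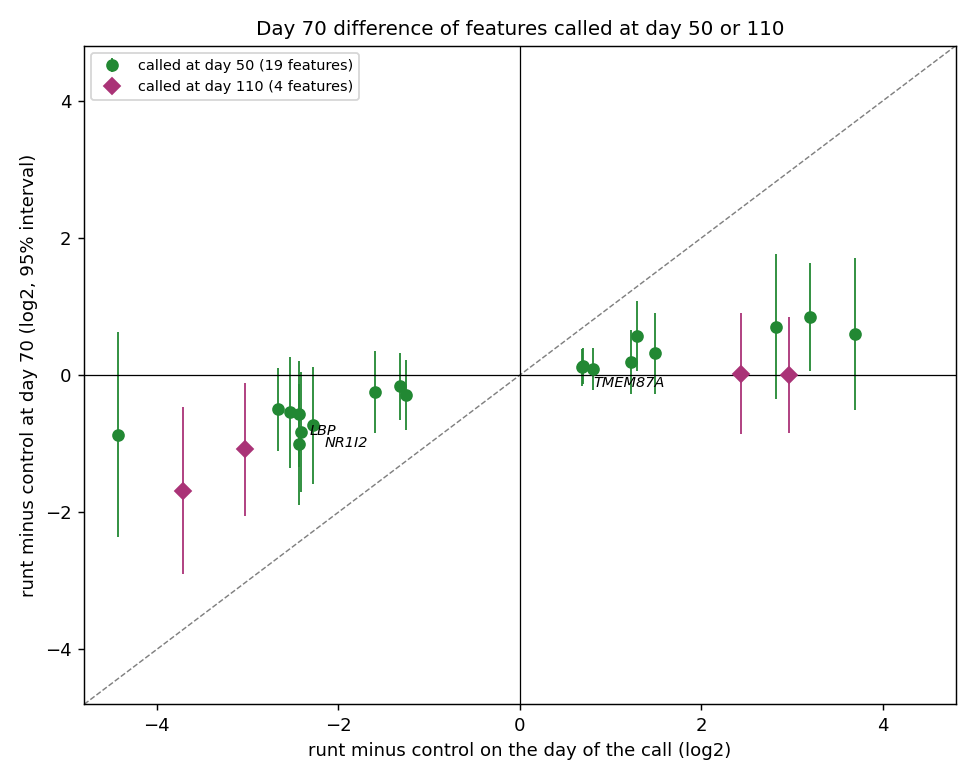
Day 70 difference (runt minus control, log2, with its 95% interval) of each feature that passed at day 50 or day 110, against its difference on the day that called it. The 19 features of day 50 lie in the quadrants of equal sign and closer to 0 on the day 70 axis than on the day 50 axis.

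The day 50 calls that carry a symbol are LBP, NR1I2 and TMEM87A. LBP was at -2.43 at day 50 and -0.56 at day 70, and NR1I2 at -2.28 and -0.73. TMEM87A, a membrane protein of the secretory pathway named here because it was called at day 50, was at 0.69 and 0.14. With any 1 of the 8 arrays left out, 18 or 19 of the 19 features kept the sign, and 19 did with the slide set as a covariate or within slides 4 to 8. Within slides 1 to 3 only 6 of 19 did, and after normexp 15. The arrays of the days also share slides. Of 7 slides that hold a day 50 and a day 70 array, 5 hold the same fetus type on both, and what slides contribute to the shared sign was not tested beyond these values.

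Across all 28673 features the day 70 difference correlated at 0.15 with the day 50 difference, at 0.15 with that of day 110 and at 0.01 with that of day 37. With slide as a fixed block the values were 0.24, 0.19 and -0.07. The day 50 value rested on control 1, without which it was -0.000237. With another array left out it ran from 0.07 without runt 1 to 0.21 without control 3, and the day 37 value ran from -0.11 to 0.12 with 1 array left out. The day 70 difference correlated at 0.11 with the control change from day 50 to day 110. That value was -0.0024 without control 1, 0.03 without runt 4 and 0.18 without control 4. The 3298 features higher in controls at day 110 than at day 50 had a median day 70 difference of 0.09, and the 3992 lower ones one of -0.04. Features are not replicates, and these correlations carry no p.

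No feature had a day 70 runt effect that differed from the mean effect of the other 3 days. At an adjusted p under 0.05 limma called 0 of 28673 (0%), and 462 had an unadjusted p under 0.05 (1.61%). Among genes with a symbol the largest excess at day 70 by p was that of NPPC, the precursor of C-type natriuretic peptide. It was well above background on 3 control and 3 runt arrays only at day 70, so part of its values lie near background. NPPC was at -5.16, -4.26, -4.15 and -5.09 in controls and -2.92, -4.00, -3.91 and -4.77 in runts, with runt 1 the highest, a day 70 difference of 0.77 (SE 0.36) and -0.91, -0.95 and 0.03 at days 37, 50 and 110. Its excess over the other days was 1.38 (unadjusted p = 0.00266, adjusted p = 1.00). TPM2 had an excess of 0.50, PFKM, the muscle type phosphofructokinase, one of 0.47, and FABP1, the liver fatty acid binding protein, one of 1.00. FABP1 was 0.31 (SE 0.35) at day 70 and -0.84, -0.49 and -0.74 on the other days. CHAT, choline acetyltransferase, was well above background on 1 array of each group only.

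In the other direction GAST had the smallest interaction p, 0.00751, with -0.83 at day 70 and 0.46, 0.25 and 0.41 on the other days. TYW3, a tRNA modifying enzyme, had -0.47 and NUDT2, a hydrolase of dinucleoside polyphosphates, -0.45. STC1 and DIRAS2, a small GTPase, were at or near background at day 70. ALB was not among these, but its difference of -0.36 at day 70 stood beside -2.53, -2.73 and -0.50 at days 37, 50 and 110, an excess of 1.56 (unadjusted p = 0.0297). A further ALB probe gave -1.10 at day 70.

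Among probes without a symbol, 2 higher and 2 lower ones are described, chosen after their values were seen, the last of them for its large difference. The smallest p of all features was that of another probe, A_72_P336288, which was lower in runts (limma, unadjusted p = 0.000324). That probe was well above background on 1 control array and 0 runt arrays. Probe A_72_P066161 was at -3.01, -5.31, -1.15 and -3.50 in controls and -0.73, -0.53, -0.71 and -1.18 in runts, with control 3 among the runts. Its difference was 2.46 (SE 0.68, unadjusted p = 0.00119). Probe A_72_P281389 was well above background on 0 control and 2 runt arrays, and runts were at least 1.81-fold higher. Probe A_72_P125001 was well above background on 4 control arrays and 0 runt arrays. It was at -3.49, -4.59, -3.03 and -2.87 in controls and -5.85, -7.31, -5.86 and -5.75 in runts, which is at least 3.88-fold lower in runts against the background limit. In every other group of the series it was well above background on 0 or 1 arrays. It was thus tested only because of the day 70 controls, where it is high, so this fold is no support for a difference.

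Probe A_72_P424229 had a difference of -8.02 (SE 2.06, unadjusted p = 0.000591, adjusted p = 1.00). It was at 2.75, 2.94, 3.04 and -3.85 in controls and -7.03, -6.40, -6.86 and -6.92 in runts. Controls 1 to 3 were bright, while control 4 and all runts were not well above background, and runts were at least 115-fold lower in the mean. The probe was also far dimmer than on most arrays in a control at days 37 and 110 and in a runt at day 50. At day 37 control 4 was at -6.24, at day 50 runt 4 at -7.03 and at day 110 control 3 at -4.86. That day 110 control was less dim than the day 70 runts, and all 4 day 110 controls were well above background. The other 21 arrays of those days lay between 1.90 and 4.87. The bright and the dim level therefore both occur in controls and in runts.

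**Figure D5:**
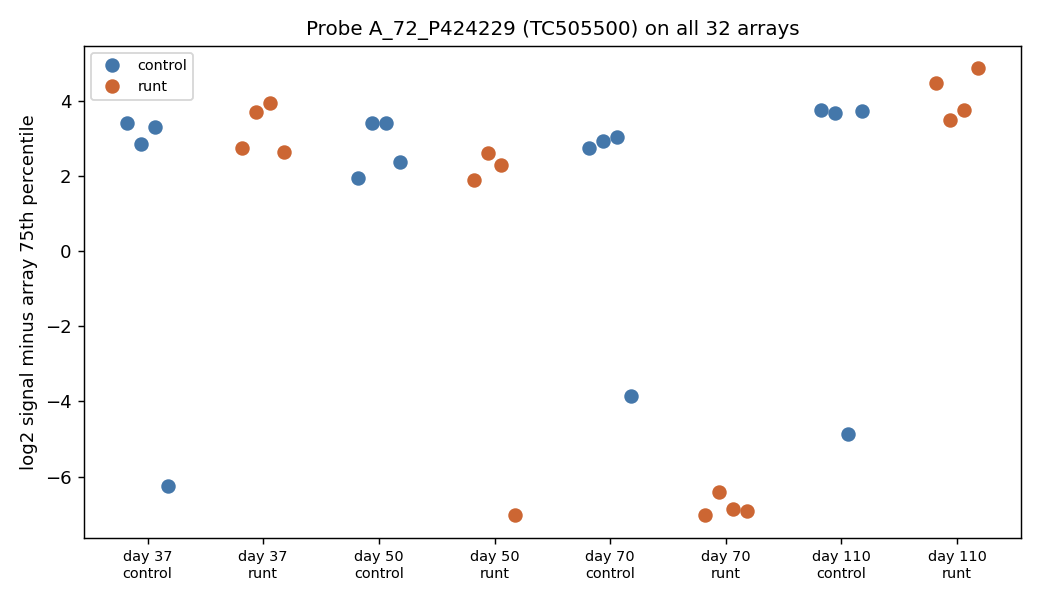
Level of probe A_72_P424229 on all 32 arrays (log2 signal minus the array's 75th percentile), by gestational day and fetus type, 1 point per array. At day 70 the points of 3 controls are near 3 and those of 4 runts below -6, and dim points also appear in 1 group at each of the other days.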

How the data were processed

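Liver RNA of the 8 day 70 fetuses and of the 24 others was hybridised to 1-colour Agilent arrays. The authors deposited, per the file headers, scanner tables of Feature Extraction 10.7.3.1 with a background-subtracted processed signal (intensity) per spot, and a table of log2 values that, per the submitters' processing notes, involved Partek. The normalization of that deposited log2 table is not given in the sources used here. Column medians were 5.15, and the table correlated with the scanner values at 0.993 or more on every array, so its scale is log2 and its direction that of the signal, while its exact centring stays unknown.

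Control and outlier spots were removed, log2 of the processed signal minus each array's 75th percentile was taken, and spots of a probe were averaged. Of 43603 probes 2683 matched 1904 RefSeq symbols (Sscrofa11.1) by accession. Probes well above background on 3 of 4 arrays of a group were tested, and the brightest stood for its gene, which gave 28673 features, 144 of them with a missing day 70 value. One mean per group of day and fetus type was fitted to all 32 arrays with limma 3.58.1 (R 4.3.3, 24 residual degrees of freedom), two-sided, with Benjamini-Hochberg adjustment over all features. "At least" folds are taken against the lowest signal well above background. P-values measure the spread between arrays of a group, each array from its own fetus, pooled over all groups and days. That spread also holds slide and litter differences, because the main fit has no term for either. The script was checked on data with known answers.

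The comparison, the 38 gene lists and the genes named were chosen with earlier results of these data known. The lists held 1531 symbols, 528 on the array and 477 measured, with 0 measured among the sex chromosome markers (X-inactivation, Y-linked). Named were the genes whose groups do not overlap (12 of smallest p per direction where as many exist), a panel of liver genes, the 3 members of smallest p in the lists described, and 5 genes per direction for the interaction. Some genes that met these rules are not reported here. Alternatives were other values, normalizations, filters, slide terms, a replicate block and each array left out. For normexp the median signal was used with an offset of 50. The scanner file's mean signal was not used here.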

Additional observations from a re-analysis of the deposited data

Results flagged for a closer look

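In 9 of 176 groups of 4 arrays examined among the named genes, 1 array lay far from the other 3 by Dixon's criterion, which chance alone meets in about 1 in 20 groups. Control 1 was far off for AQN-1 at -7.55, with the other controls at -4.58 to -3.98, for DLK1 at 1.61 against 0.44 to 0.58, and for PSME1 at 3.79 against 4.09 to 4.11. Control 4 was far off for CTSV at 5.26 against 5.50 to 5.51, and for IDH3A at 3.64 against 3.50 to 3.52. Control 3 was far off for HSPA6 at 0.13 against -0.23 to -0.20. Among runts, runt 1 was far off for TPM2 at 1.12 against 0.42 to 0.45, runt 3 for SERPINA3-2 at 4.63 against 5.91 to 6.02, and runt 4 for RHBG at 1.57 against 0.11 to 0.31. No runt effect at day 70 passed the test of a difference from the other days.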

How the results depend on the processing

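The count of features passing at day 70 was 0 under all settings but 2, and likewise the count for the difference from the other days under all but 1. With the replicate number as a block, 1 feature passed in each (1 unnamed probe, adjusted p = 0.0391 for day 70 and 0.0311 for the difference from the other days), and with the block on the day 70 arrays alone 0 passed. Leaving out 1 array gave 0 to 1 features, the 1 being an unnamed probe without control 3 (adjusted p = 0.0372). The labels do not say that a number marks a litter, and same-numbered arrays deviated together at 0.16, -0.0085, 0.079 and 0.31, so the numbers were not taken as pairing. At an unadjusted p under 0.05 the 521 features became 822 after normexp, 1055 without a filter on dim probes, 278 with only probes above background on all 32 arrays, 817 with slide as a fixed block, 1055 with the replicate block, 922 with that block on the day 70 arrays alone and 1151 within slides 4 to 8. The correlation with the control course ran from -0.0024 to 0.18 with 1 array left out.

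Of 2092 values of the 88 named genes under alternatives, 2033 kept their sign and 59 did not, 13 of these with 1 array left out. On the log2 scale these were, after normexp, ADAM10 0.28, AFP -0.14, CAPN3 0.43, CRAT -0.079, CTSV -0.10, CYP7A1 0.79, F9 -0.088, HSD17B2 -0.020, HYAL1 0.50, IGF2 -0.090, NDUFB8 -0.092, OTC -0.021, PSME1 -0.054, RPL10 -0.040, RPL29 -0.048, RPS3 -0.087, SERPINF1 -0.046, STC1 0.66, TFRC 0.091 and TMEM87A -0.15. Within slides 1 to 3 they were ACAA2 -0.0082, ALB 0.51, ANGPTL4 -0.085, AQN-1 -0.31, C9 0.13, DIO1 0.35, ENPEP 1.03, GLUL -0.73, HBE1 -0.30, LBP 0.41, NPPC -0.14, NR1I2 0.88, PSP-I -0.71, RHBG 0.48, SERPINA3-2 0.00035, SLC15A1 -0.92 and SPMI -1.34, and within slides 4 to 8 AFP -0.12, CYP7A1 0.36, DIRAS2 -0.64, DLK1 -0.067, FABP1 -0.054, OTC -0.084 and TTR -0.078. TFRC was 0.0088 with the slide set as a covariate and DLK1 -0.037 as a mean of its probes. With 1 array left out the ranges were AFP -0.015 to 0.31, ALB -0.62 to 0.024, CYP7A1 -0.34 to 0.19, DIRAS2 -0.35 to 0.42, OTC -0.013 to 0.37, PSP-I -0.13 to 0.81, RAG2 -2.44 to 0.18, SERPINA3-2 -0.43 to 0.037 and TFRC -0.11 to 0.022. The cause of these changes was not tested. Genes near background (CYP7A1, STC1, HYAL1, CAPN3 and DIRAS2) have no firm direction, and within slides 1 to 3 only 2 controls meet 1 runt.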

Other observations

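For gene groups not described above, the counts stand beside 57.8% of all features with a symbol above 0 and a median of 0.03. Above 0 were 6 of 16 cell cycle genes (median -0.06), 9 of 11 fetal and oncofetal liver genes (median 0.06), 7 of 11 imprinted genes (median 0.05), 8 of 14 liver transcription factors (median 0.10) and 8 of 13 genes of the glucocorticoid and thyroid response (median 0.15). Above 0 were also 6 of 7 genes of amino acid and unfolded protein stress (median 0.11), 6 of 14 immediate early and heat shock genes (median -0.01), 11 of 24 antioxidant and iron genes (median -0.02), 5 of 9 genes of amino acid catabolism (median 0.14) and 2 of 7 blood stem and progenitor cell genes (median -0.05). No member of these groups passed the test.

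Outside the comparison of groups, 71 features split the 8 day 70 arrays into a bright and a dim class, with a gap of at least 4 on the log2 scale between them. They were picked for that gap, and fetal sex and genotype were not given in the labels. The 71 features followed 22 different splits of the arrays. In 31 the bright class was 1 array, which was control 4 for 21 of them. In 12 the bright arrays were control 3, control 4 and runt 2, and in 6 they were the other 5 arrays. The bright and dim classes matched runts and controls in 0 of the 71. Control 4 was also the day 70 array with the most outlier spots, 234, and the fewest spots well above background, 51.3%. Its correlation with the deposited value table was the lowest, at 0.993. Whether the quality of that array bears on its bright features was not tested.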
